A study of Mus musculus with 6 samples.

Results

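The 9 genes described here encode enzymes of the tricarboxylic acid (TCA) cycle in the mitochondrial matrix: Cs, Idh2, Idh3a, Idh3b, Idh3g, Ogdh, Suclg1, Fh1 and Mdh2. They were taken by name from the 16840 gene symbols of the deposited count table, with earlier results of these data known. All 9 passed the filter on low counts that left 12340 genes for testing. RNA had been sequenced from cultured alveolar macrophages of the mouse, which live in the air spaces of the lung, labelled WT and taken at day 2. There were 3 groups of 2 libraries: cells without GM-CSF stimulation, cells with GM-CSF, and cells with GM-CSF to which an agent given in the labels only as DON was added. GM-CSF (granulocyte-macrophage colony-stimulating factor) is a cytokine that alveolar macrophages need to develop and persist. The labels carry the entry AM under cell line without saying whether the cells were primary. Nothing in them ties the replicates of a group to different cultures or mice, and the p-values therefore refer to the spread among these 6 libraries, which may be technical.

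In the TCA cycle, citrate synthase (Cs) joins acetyl-CoA to oxaloacetate, and the citrate is oxidised stepwise back to oxaloacetate, with reducing equivalents passed to the respiratory chain. Isocitrate is oxidised by the NAD-linked isocitrate dehydrogenase, a complex of a catalytic alpha subunit (Idh3a) with beta and gamma subunits (Idh3b, Idh3g), or by the NADP-linked Idh2. Ogdh is a component of the 2-oxoglutarate dehydrogenase complex, Suclg1 is a subunit of succinyl-CoA synthetase, fumarase (Fh1) makes malate, and Mdh2 oxidises malate to oxaloacetate. In macrophages the cycle is also known as a source of signalling and biosynthetic metabolites, among them citrate, succinate and itaconate.

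Total counts lay between 28321986 and 35196387 per library, and between 14892 and 15188 genes had a count. Of 12 markers of alveolar macrophages, 11 were above 10 CPM in some library, among them Itgax, Siglec5, Mrc1 and Pparg (CPM values are read counts adjusted for library size). Their summed level was 11204 to 11656 CPM without GM-CSF, 14087 to 14164 under GM-CSF alone, and 17520 to 17615 under GM-CSF plus DON. Much of the rise in that sum was that of Chi3l3, whose means were 1814, 5543 and 7702 CPM, with Car4 at 0.226, 656 and 314 CPM. Without GM-CSF, Itgax (mean 3028 CPM) and Cd9 (2267 CPM) gave more to the sum than Chi3l3. CPM does not divide by gene length, however. On the authors' FPKM scale, which does, Itgax (mean 788) was below Chi3l3 (1351) and Cd9 (2181) above it. Of the 12 markers, 7 were called lower and 3 higher with GM-CSF (median log2 fold change -0.32), with Siglec5 at -0.33, Pparg at -0.34, Fabp4 at -1.14, Fabp5 at -0.69 and Cd9 at -0.52, and 3 were lower and 6 higher when DON was added (median 0.33). The 3 granulocyte markers in the table (Csf3r, Cxcr2, S100a8, of 8 listed) summed to 90.2 to 93.0 CPM without GM-CSF, 6.85 to 7.54 under GM-CSF alone, and 11.8 to 13.7 under GM-CSF plus DON. The 7 dendritic cell markers summed to 8.65 to 8.92, 27.9 to 28.2 and 25.5 to 25.6 CPM in the same order. Of the 5 tested, Zbtb46 (-1.17) and Batf3 (-0.91) were called lower when DON was added, Clec9a (0.86) higher, and 2 were not called. Lung epithelial markers (10 of 12 in the table) summed to 105 to 117, 166 to 172 and 106 to 109 CPM, mostly from Abca3 and Cdh1, while the surfactant genes Sftpc, Sftpb and Sftpd each had no count in at least 1 group. The 4 lymphocyte markers in the table (of 8 listed) summed to at most 1.63 CPM, and the 8 stromal and endothelial markers to at most 3.19 CPM, in any library. The part of these marker levels in the results that follow was not tested, and in bulk RNA fewer cells of a type and less RNA per cell cannot be told apart.

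The members lie on 9 different chromosomes in the mouse build GRCm38 (mm10), by GENCODE M21, and all are protein-coding. Cs is at chr10:128337734-128362479 on the plus strand, Idh2 at chr7:80094846-80115392 on the minus strand, and Idh3a at chr9:54586334-54604661 on the plus strand. Idh3b is at chr2:130279309-130284547 and Idh3g at chrX:73778963-73786897, both on the minus strand. Ogdh spans chr11:6291633-6356642, Suclg1 chr6:73248382-73276911 and Mdh2 chr5:135778480-135790398, all on the plus strand, and Fh1 spans chr1:175600374-175625635 on the minus strand. The files give 1 count per gene symbol and library, so they do not separate the transcripts of a member.

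Sequence upstream of an annotated transcription start is shown for 4 members. Idh3b and Idh3g are the pair that rose when DON was added, and Cs and Ogdh are members that fell. The sequences are RefSeq's on GRCm38.p6, read 5′ to 3′ on the gene's own strand and limited to bases before the start and outside annotated exons. They span chr2:130284548-130284701 for Idh3b, chrX:73786898-73787027 for Idh3g, chr10:128337477-128337726 for Cs and chr11:6292514-6292557 for Ogdh, the last before 1 of the annotated Ogdh starts. The Idh3b stretch runs from -250 to -97 relative to the RefSeq start, since the bases nearer to it lie within the GENCODE gene; the other 3 end at the base before the start. Capitals mark a match to the NRF1 core searched for.
Idh3b: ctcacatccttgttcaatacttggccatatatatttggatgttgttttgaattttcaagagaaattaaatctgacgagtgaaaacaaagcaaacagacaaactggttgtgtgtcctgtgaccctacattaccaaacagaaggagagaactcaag
Idh3g: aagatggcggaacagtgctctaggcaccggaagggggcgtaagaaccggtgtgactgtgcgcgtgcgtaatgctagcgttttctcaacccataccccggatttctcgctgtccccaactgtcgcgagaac
Cs: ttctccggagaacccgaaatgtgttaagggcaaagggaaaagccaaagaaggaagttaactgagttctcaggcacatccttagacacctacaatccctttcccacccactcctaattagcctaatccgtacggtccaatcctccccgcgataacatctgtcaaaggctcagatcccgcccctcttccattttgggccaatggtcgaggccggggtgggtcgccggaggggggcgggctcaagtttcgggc
Ogdh: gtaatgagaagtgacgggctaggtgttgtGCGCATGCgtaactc
The windows of 250 bases before the start matched 8 of the 9 members (all but Idh3a), with 13 windows in all. Motifs were searched on both strands. The NRF1 core GCATGCGC, which the Ogdh sequence carries on the opposite strand, was in 2.26% of all 32851 windows and, among the members, in 2 windows of Ogdh only. An E-box, CACGTG, was in 6.02% of all windows and in 3 windows of Ogdh. The full NRF1 site (0.782% of all windows, a longer form of the core), the ERR site TCAAGGTCA (0.387%), its shorter form AAGGTCA (4.08%) and the ETS site CCGGAAGT (2.88%) had no match in the members' windows. A match is a description of these letters and not of binding. GC content was 46.8% in the Idh3b window and 62.8% in that of Idh3g, against a median of 52.4% and quartiles of 45.2% and 61.2% over all windows.

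With GM-CSF, 6 of the 9 members rose and none fell. The rises ran from 14.6% for Ogdh to 71.3% for Idh2. Idh3b, Idh3g and Suclg1 did not pass the test. Adding DON to GM-CSF was accompanied by a fall in the same number of members, 6 of 9, between 28.8% (Mdh2) and 40.5% (Idh3a), while Idh3b was 33.2% and Idh3g 17.2% higher. Tests were made with edgeR (quasi-likelihood), with Benjamini-Hochberg adjusted p-values over the 12340 genes, and a gene is called changed at an adjusted p under 0.05. Of all genes tested, 27.5% were called higher and 29.3% lower with GM-CSF (56.8% in all), and 28.8% higher and 28.8% lower when DON was added (57.6% in all). The median log2 fold change of the members was 0.35 with GM-CSF against -0.02 over all genes, and -0.54 when DON was added against 0.01. Both comparisons use the same GM-CSF libraries, so a high value there raises the first and lowers the second, and their values are given side by side.

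Summed over the 9 members, the level was 1241 and 1238 CPM without GM-CSF, 1579 and 1559 under GM-CSF alone, and 1218 and 1200.5 under GM-CSF plus DON. The GM-CSF libraries were highest in this sum, and no library of any group overlapped with another group. Scaling by total counts alone moved the median of all genes from -0.02 to 0.10 with GM-CSF, and the share of called genes that were higher from 48.4% to 63%. On that scale all 9 members were called higher with GM-CSF, with Idh3b at 0.15, Idh3g at 0.12 and Suclg1 at 0.23 on the log2 scale, values close to the shift itself for Idh3b and Idh3g. The calls when DON was added to GM-CSF were the same 2 higher and 6 lower under that scaling.

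**Figure D1:**
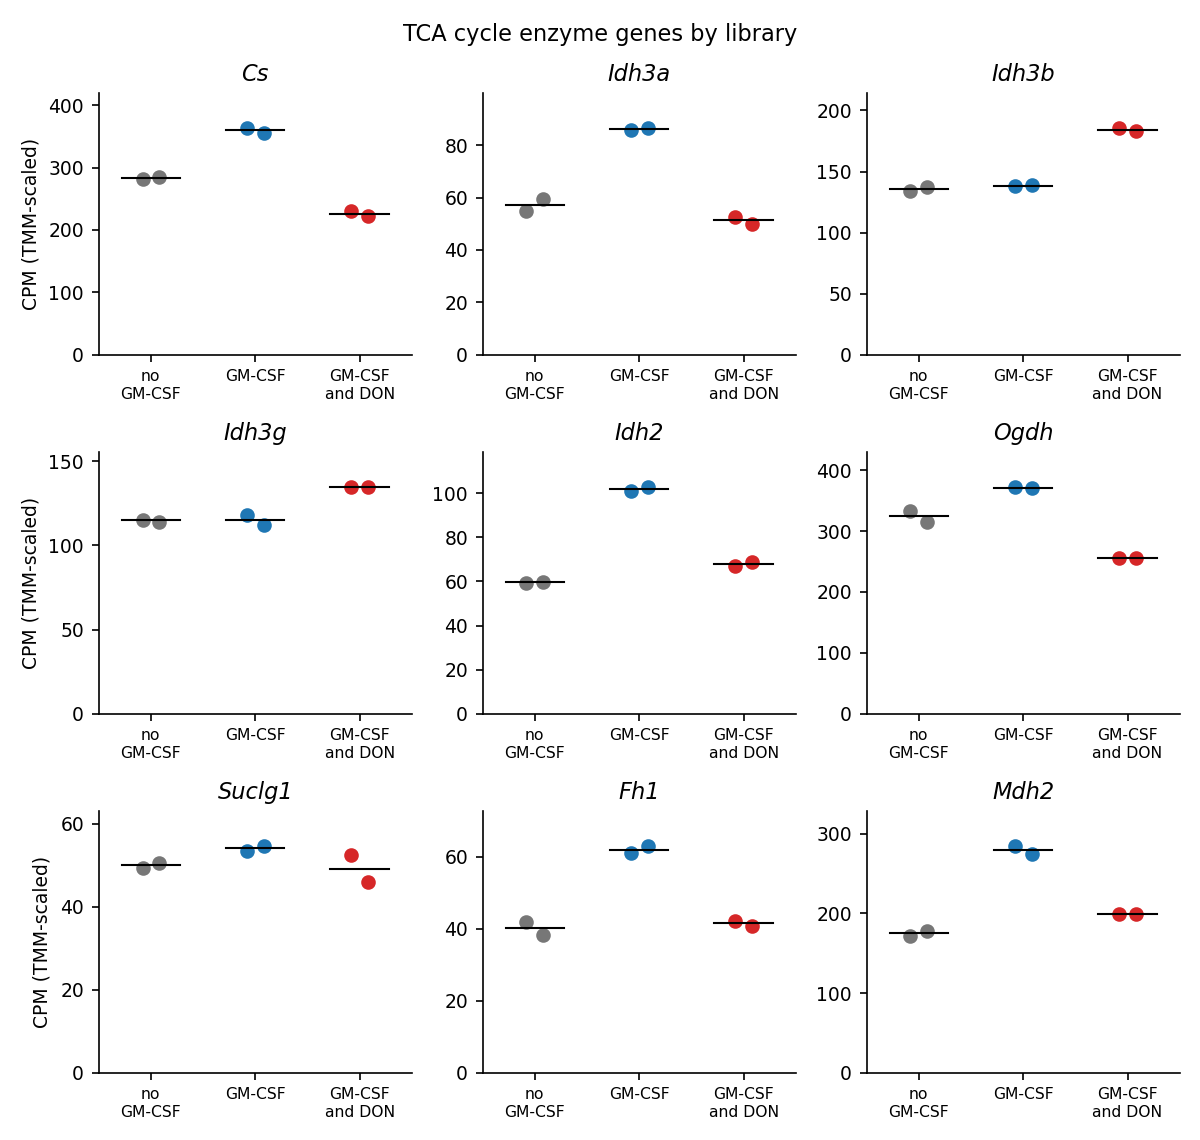
Normalised level (CPM) of the 9 members in each library, 1 panel per gene, with a point for each of 2 libraries per group and a line at the group mean. Cs, Idh2, Idh3a, Ogdh, Fh1 and Mdh2 peak in the GM-CSF group, whereas Idh3b and Idh3g are highest with GM-CSF and DON.

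Citrate synthase, which catalyses the entry step, was at 282 and 285 CPM without GM-CSF, 364 and 356 under GM-CSF alone, and 230 and 222 under GM-CSF plus DON. No groups overlapped, and the cells with GM-CSF and DON were below those without GM-CSF. The log2 fold change of Cs was 0.35 ± 0.04 (SE) with GM-CSF (adjusted p = 4.41e-05) and -0.67 ± 0.04 when DON was added (6.58e-07). Against no GM-CSF, Cs in the cells with GM-CSF and DON was -0.33 ± 0.04 (7.08e-05).

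The subunits of NAD-linked isocitrate dehydrogenase did not move together. Idh3a, the catalytic subunit, was at 54.8 and 59.6 CPM without GM-CSF, 85.9 and 86.7 under GM-CSF alone, and 52.7 and 50 under GM-CSF plus DON. Its level was high in the GM-CSF libraries only. Idh3b was at 134 and 137 CPM without GM-CSF, 138 and 139 under GM-CSF alone, and 186 and 183 under GM-CSF plus DON. Idh3g was at 115 and 114, 118 and 112, and 135 and 135 CPM in the same order. For both Idh3b and Idh3g the libraries with GM-CSF and DON stood above the other 4.

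On the log2 scale, Idh3a changed by 0.59 ± 0.06 with GM-CSF (adjusted p = 1.07e-05) and by -0.75 ± 0.06 when DON was added (2.89e-06). For Idh3b the difference with GM-CSF was 0.03 ± 0.04 (95% interval -0.06 to 0.12, adjusted p = 0.581), and for Idh3g it was 0.00 ± 0.05 (-0.10 to 0.10, 0.968). With DON added, Idh3b rose by 0.41 ± 0.04 (2.02e-05) and Idh3g by 0.23 ± 0.05 (0.00159). Against no GM-CSF, the cells with GM-CSF and DON had Idh3b at 0.44 ± 0.04 (1.09e-05) and Idh3g at 0.23 ± 0.05 (0.00161). Idh3a was at -0.16 ± 0.06 in that comparison, and its adjusted p of 0.0426 was close to the threshold. That call was lost under 10 of 12 other settings. It was lost without no GM-CSF replicate 2 (-0.10, adjusted p = 0.272), without the first replicate with GM-CSF and DON (-0.19, 0.0551) or without the second (-0.12, 0.213), and with DESeq2 (-0.16, 0.0808). The adjusted p was 0.0651 with the replicate block, 0.0604 without the filter on low counts, 0.0676 with only the compared groups, and 0.227 and 0.226 on the FPKM scale (-0.10 and -0.11, with pseudocounts of 1 and 0.1).

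The ratio of 2 genes' counts within a library does not depend on how libraries are scaled. Since these counts are not divided by gene length, only its change between groups is read. The Idh3b to Idh3a count ratio was 2.45 and 2.30 without GM-CSF, 1.61 and 1.60 under GM-CSF alone, and 3.52 and 3.67 under GM-CSF plus DON. It was lowest with GM-CSF and highest with GM-CSF and DON, 2.24-fold apart, with no overlap. The Idh3g to Idh3a ratio had the same order, at 2.11 and 1.92, 1.37 and 1.30, and 2.56 and 2.69. The Idh3b to Idh3g ratio varied less, at 1.16 and 1.20, 1.17 and 1.23, and 1.38 and 1.36, and the groups with and without GM-CSF overlapped. With 2 libraries against 2, the exact two-sided permutation test cannot go below p = 0.333, the value reached by each of these ratios in every comparison except Idh3b to Idh3g with GM-CSF against without (p = 0.667). The direction of that exception turned without GM-CSF replicate 2 (a log2 difference of -0.01 in place of 0.03).

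**Figure D2:**
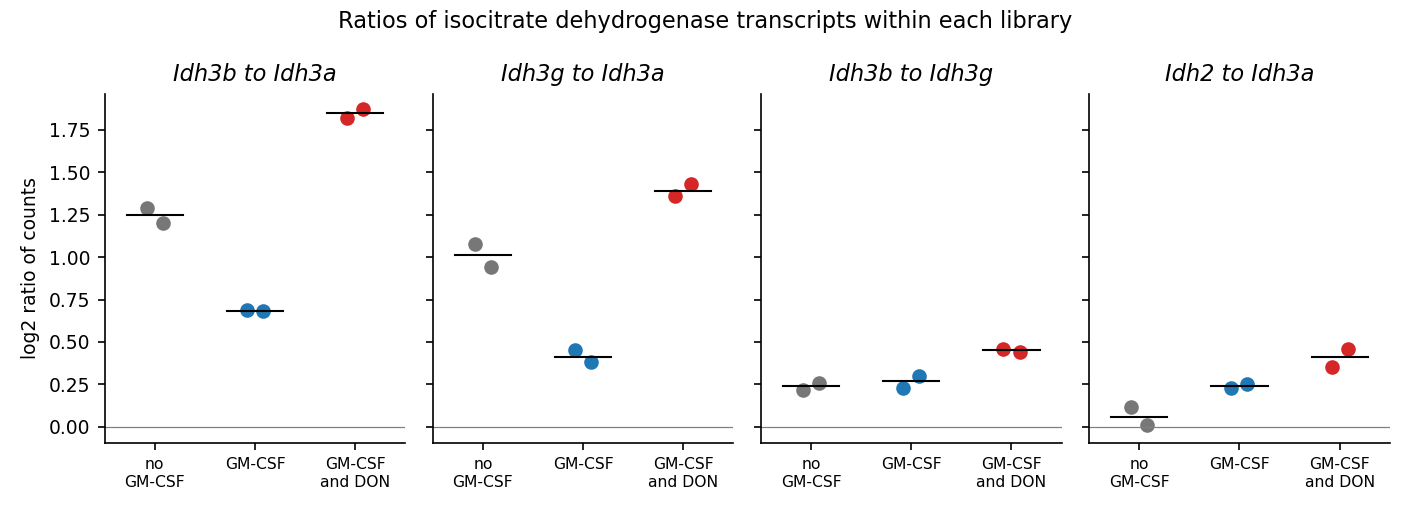
Log2 ratios of counts of isocitrate dehydrogenase genes within each library, 1 panel per ratio, with a point for each of 2 libraries per group and a line at the group mean. The log2 ratio of Idh3b to Idh3a goes from 1.29 and 1.20 without GM-CSF to 0.69 and 0.68 under GM-CSF alone and 1.82 and 1.87 under GM-CSF plus DON, and that of Idh3b to Idh3g stays between 0.22 and 0.46.

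Idh2, the NADP-linked mitochondrial enzyme that works on the same substrate, was at 59.3 and 59.8 CPM without GM-CSF, 101 and 103 under GM-CSF alone, and 67.1 and 69.0 under GM-CSF plus DON. The groups did not overlap, and the cells with GM-CSF and DON lay nearer to those without GM-CSF. Its log2 fold change was 0.78 ± 0.05 with GM-CSF (adjusted p = 4.05e-07), -0.58 ± 0.05 when DON was added (4.10e-06), and 0.19 ± 0.05 for GM-CSF and DON against no GM-CSF (0.0063). The Idh2 to Idh3a count ratio was 1.08 and 1.0, 1.18 and 1.19, and 1.27 and 1.38 in the 3 groups. This ratio was higher with GM-CSF than without, and higher again where DON was added, by 0.18 and 0.17 on the log2 scale. From FPKM the differences were 0.13 and 0.17. The libraries did not overlap, and the exact permutation test gave p = 0.333 for both, the lowest it can reach. The cytosolic NADP-linked enzyme, Idh1, moved the other way from Idh2 with GM-CSF: its mean fell from 328 ± 3.85 CPM to 163 ± 2.86 (SD, n = 2), a log2 fold change of -1.01 ± 0.04 by edgeR (adjusted p = 3.70e-08). When DON was added, Idh1 differed by 0.09 ± 0.04 (0.0895).

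Ogdh, the substrate-binding component of the complex that turns 2-oxoglutarate into succinyl-CoA, was at 333 and 315 CPM without GM-CSF, 373 and 370 under GM-CSF alone, and 255 and 256 under GM-CSF plus DON. Its rise with GM-CSF, 0.20 ± 0.04 (adjusted p = 0.00242), was the smallest among the 6 members called. Its fall when DON was added was -0.54 ± 0.04 (3.16e-06), which left it below the level without GM-CSF by -0.34 ± 0.04 (6.36e-05). The pattern of Ogdh over the 6 libraries was nearest to that of Cs among the members, with a root mean square distance of 0.0748 between their centred log2 CPM.

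Suclg1, the alpha subunit of succinyl-CoA synthetase, was at 49.3 and 50.6 CPM without GM-CSF, 53.3 and 54.7 under GM-CSF alone, and 52.4 and 45.9 under GM-CSF plus DON. With TMM scaling and all libraries, it is the member with no call in any comparison (TMM is the library scaling used throughout unless another is named). The difference was 0.11 ± 0.07 with GM-CSF (95% interval -0.04 to 0.26, adjusted p = 0.178), -0.14 ± 0.07 when DON was added (-0.28 to 0.01, 0.102) and -0.03 ± 0.07 for GM-CSF and DON against no GM-CSF (-0.17 to 0.12, 0.761). The last group's replicates were farther apart than in the other groups. Without the first replicate with GM-CSF and DON, the fall when DON was added was called (-0.23, adjusted p = 0.0170). Without the second, the difference against no GM-CSF changed sign (0.07, 0.400).

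Fumarase (Fh1) was at 41.8 and 38.4 CPM without GM-CSF, 60.9 and 63.1 under GM-CSF alone, and 42.1 and 40.9 under GM-CSF plus DON. The first and the last group overlapped. Fh1 rose by 0.63 ± 0.06 with GM-CSF (adjusted p = 9.00e-06) and changed by -0.58 ± 0.06 when DON was added (1.90e-05). The cells with GM-CSF and DON differed from those without GM-CSF by 0.05 ± 0.06 (95% interval -0.08 to 0.18, adjusted p = 0.517).

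Mdh2, the mitochondrial malate dehydrogenase that closes the cycle, was at 171 and 178 CPM without GM-CSF, 285 and 274 under GM-CSF alone, and 199 and 199 under GM-CSF plus DON. As for Idh2, the cells with GM-CSF and DON lay between the other groups. Mdh2 rose by 0.68 ± 0.04 with GM-CSF (adjusted p = 6.11e-07), changed by -0.49 ± 0.04 when DON was added (8.16e-06) and was 0.19 ± 0.04 higher with GM-CSF and DON than without GM-CSF (0.0043). Idh2 and Mdh2 had the closest patterns of any pair of members, with a root mean square distance of 0.0548.

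**Figure D3:**
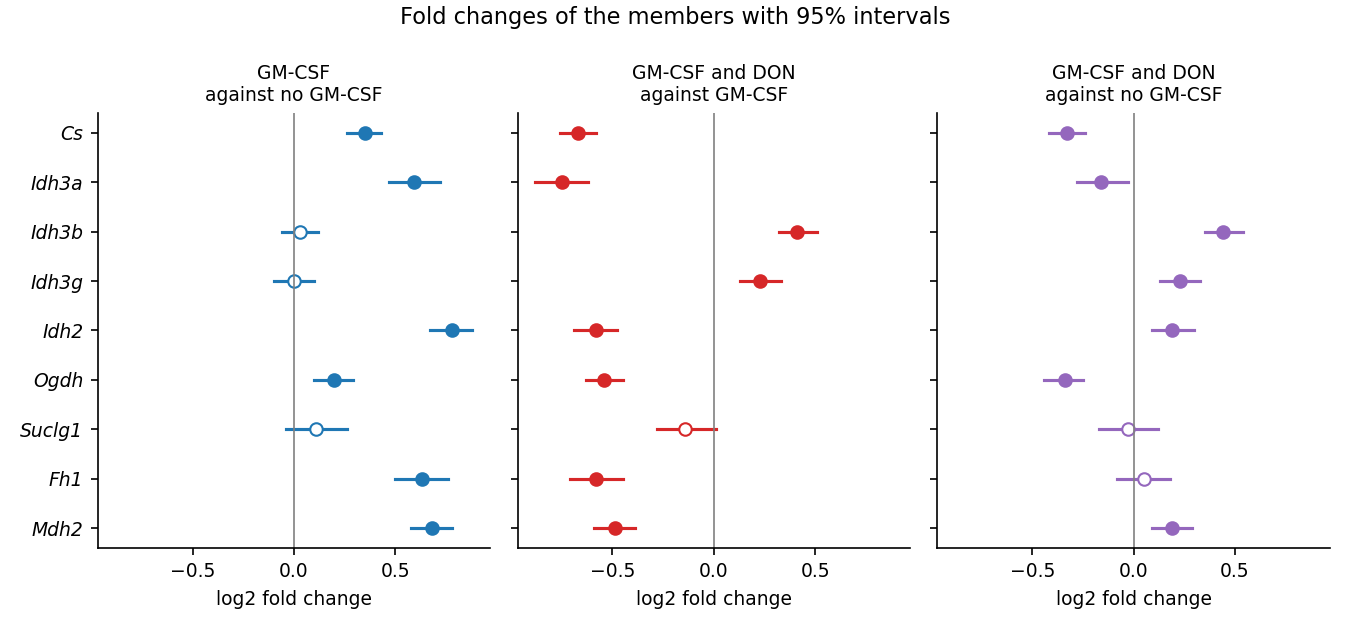
Log2 fold changes of the 9 members in the 3 comparisons, with 95% intervals from edgeR, in the order of the cycle; filled points were called at an adjusted p under 0.05. With GM-CSF all estimates lie at or above 0, and when DON was added only Idh3b (0.41) and Idh3g (0.23) lie above 0.

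Between GM-CSF with DON and no GM-CSF, 4 members were higher (Idh3b, Idh3g, Idh2, Mdh2), 3 lower (Cs, Ogdh and, in a call that most other settings lost, Idh3a) and 2 not called (Suclg1, Fh1). Over all genes tested, 27.2% were called higher and 28.4% lower in this comparison, 55.6% in all. The members' median log2 fold change was 0.05, against 0.01 over all genes. Cs and Ogdh were thus below their level without GM-CSF even though GM-CSF was present, Idh2 and Mdh2 were above it, and Idh3b and Idh3g were above their level in both other groups. Total-count scaling moved the share of called genes that were higher from 48.9% to 61.6% in this comparison. It kept 4 members higher and 2 lower, with Idh3a no longer called (-0.06, adjusted p = 0.424).

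Libraries of the compared groups did not overlap for 8 of 9 members with GM-CSF against without (78.7% of all genes tested), for 9 of 9 when DON was added (79.4%), and for 7 of 9 between GM-CSF with DON and no GM-CSF (77.6%). These shares of members are near the shares over all genes.

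Levels of different members can be set against each other on the authors' FPKM scale, which divides by gene length. Mdh2 was the highest without GM-CSF, at 136 and 141 FPKM, followed by Idh3b (108 and 117), Cs (107 and 108), Idh3g (105 and 101) and Ogdh (90.0 and 83.3). Suclg1 (41 and 42), Idh2 (38.8 and 39.1), Idh3a (27.8 and 31.2) and Fh1 (20.3 and 18.5) formed the lower part of the order. Neighbours in this order did not overlap in their 2 libraries, though Idh3b and Cs, and Cs and Idh3g, were close. With GM-CSF the order began with Mdh2 (226 and 218 FPKM) and Cs (138 and 136), and Idh3g (104 and 99.8) and Ogdh (101 and 101) overlapped. Idh2 (65.9 and 67.4) and Idh3a (46.1 and 46.2) had passed Suclg1 (44.4 and 45.6), the last pair by little. With GM-CSF and DON, Idh3b (159.7 and 154) and Mdh2 (157 and 156) led and overlapped, and Idh3g (119 and 126) stood above Cs (86.6 and 83.5) and Ogdh (71.6 and 70.4). The highest member was 7.11, 7.18 and 7.37 times the lowest in the 3 groups. The length implied by the ratio of counts to FPKM differed between libraries by 6.29% to 12.8% for the members. A part of this that all genes of a library share leaves the order within that library unchanged. The part particular to a gene was not separated, so small differences between neighbours call for caution.

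The remaining enzymes of the cycle, 9 genes not among the members, had 7 rises with GM-CSF, 1 fall (Suclg2) and 1 gene not called (Sdhb), with a median log2 fold change of 0.28. With DON added, 7 fell, none rose and 2 were not called (Suclg2, Sdhb), with a median of -0.27. None of the 9 therefore rose with DON as Idh3b and Idh3g did. Dlst and Dld, the partners of Ogdh in its complex, had 0.51 and 0.28 with GM-CSF and -0.42 and -0.27 when DON was added, so that Ogdh had the smallest rise and the largest fall of the 3 subunits.

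Among the subunits of succinyl-CoA synthetase, Sucla2, which forms the ATP-specific enzyme with Suclg1, rose by 0.23 with GM-CSF and changed by -0.19 when DON was added. The latter call was lost without GM-CSF replicate 1 (adjusted p = 0.0581) or the second replicate with GM-CSF and DON (0.0679). The GTP-specific Suclg2 was at -0.23 with GM-CSF (adjusted p = 0.0454), a call lost under 10 of 12 other settings, for example without GM-CSF replicate 2 (-0.11, 0.317) or either replicate without GM-CSF (0.125 and 0.0725). Leaving out that same GM-CSF replicate turned its value when DON was added into a call (-0.30, 0.0187). Of the succinate dehydrogenase subunits, Sdhd (0.67 and -0.47) and Sdhc (0.41 and -0.35), the membrane anchors, had larger values than the flavoprotein Sdha (0.18 and -0.19), a difference that was not tested. The iron-sulphur subunit Sdhb was at -0.03 and -0.07 and was not called. Between GM-CSF with DON and no GM-CSF, 7 of these 9 genes were not called, Suclg2 was lower (-0.41) and Sdhd higher (0.20), the latter not without no GM-CSF replicate 1 (0.14, adjusted p = 0.0928).

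**Figure D4:**
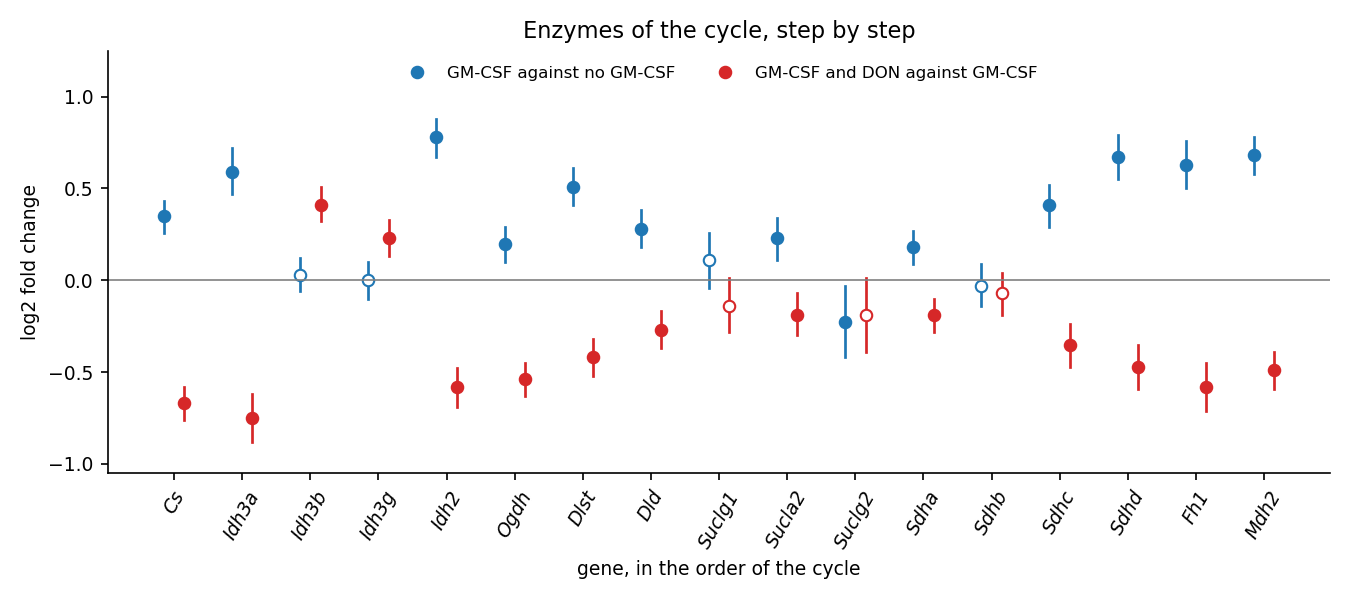
Log2 fold changes with 95% intervals from edgeR for the 9 members and 8 of the 9 remaining enzymes in the order of the cycle, with GM-CSF against no GM-CSF in blue and GM-CSF with DON against GM-CSF in red; filled points were called at an adjusted p under 0.05. Blue points are mostly above 0 and red points below it, with Idh3b (0.41) and Idh3g (0.23) the only red points above 0.

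Irg1, which draws aconitate out of the cycle to make itaconate, was at 24.4 and 25.7 CPM without GM-CSF, 0.851 and 0.806 under GM-CSF alone, and 0.525 and 0.276 under GM-CSF plus DON. It fell by 4.91 ± 0.15 on the log2 scale with GM-CSF by edgeR (adjusted p = 3.84e-09), in the opposite direction to the members called there. When DON was added the change was -1.07 ± 0.31 (adjusted p = 0.0129), a call lost without GM-CSF replicate 1 (-1.03, 0.0602) or the second replicate with GM-CSF and DON (-0.65, 0.167), and with limma on log2(FPKM + 1) (-0.21, 0.0824), a scale that understates changes of genes this low.

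Genes that bring pyruvate into the cycle were mixed. Of 13, 6 rose, 3 fell and 4 were not called with GM-CSF (median 0.07), and 2 rose, 7 fell and 4 were not called when DON was added (median -0.26). The pyruvate dehydrogenase subunits Pdha1 (0.47), Pdhb (0.55) and Dlat (0.57), as well as Pdhx (0.40), rose with GM-CSF, as did pyruvate carboxylase, Pcx (0.61). In the comparison with DON, Pdha1 was at -0.42, Dlat at -0.46 and Pcx at -0.36, while Pdhx was not called (0.15). The Pcx call was lost without the second replicate with GM-CSF and DON (-0.28, adjusted p = 0.0529), and Pdhx was called higher without the first (0.22, 0.0436) and by limma on log2(FPKM + 1) and log2(FPKM + 0.1) (0.27 and 0.28, 0.029 and 0.0282). The kinases that inhibit pyruvate dehydrogenase differed from each other. Pdk1 fell with GM-CSF (-0.86) and again when DON was added (-0.49), whereas Pdk2 fell with GM-CSF (-0.54) and rose when DON was added (0.99). Pdk3 rose with GM-CSF (0.47) and fell when DON was added (-0.46), and Pdk4 was not called in either comparison. Of the activating phosphatases, Pdp1 rose when DON was added (0.84) and Pdp2 fell (-0.57). Brp44l, the mitochondrial pyruvate carrier subunit also known as Mpc1, was at 0.07 and 0.04 and was not called in either comparison, but with total-count scaling it was called higher with GM-CSF (0.19, adjusted p = 0.0039).

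Cytosolic counterparts and mitochondrial carriers did not share the members' pattern with GM-CSF: 3 of 13 rose, 5 fell and 5 were not called (median -0.06). When DON was added, 1 rose, 8 fell and 4 were not called (median -0.34). The cytosolic malate dehydrogenase Mdh1 had smaller values than its mitochondrial form, 0.19 with GM-CSF and -0.24 when DON was added, and its rise was not called without GM-CSF replicate 1 (0.14, adjusted p = 0.0709). Slc25a1, the citrate carrier, fell with GM-CSF (-0.81) and rose when DON was added (0.28). Acly, which splits citrate in the cytosol, was at 0.06 with GM-CSF, not called except with total-count scaling (0.18, adjusted p = 0.00966), and at -0.46 when DON was added, and Aco1 was at -0.06, not called, and -0.25. The aspartate-glutamate carriers of the malate-aspartate shuttle were lower when DON was added, Slc25a13 by -1.44 and Slc25a12 by -0.64. The mitochondrial malic enzyme Me3 rose with GM-CSF (0.70).

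Enzymes that feed the cycle from glutamine, alanine, aspartate and branched sources split evenly with GM-CSF, with 4 of 13 higher and 5 lower (median -0.06), and when DON was added 3 rose, 2 fell and 8 were not called (median 0.01). Gpt2, which interconverts alanine and pyruvate while making 2-oxoglutarate, rose most with GM-CSF (1.32), and Got1 rose by 0.53. Glud1 and Got2, which connect glutamate to 2-oxoglutarate, rose with GM-CSF (0.22 and 0.30) and were not called when DON was added (0.03 and -0.06). Pccb, of propionyl-CoA carboxylase, fell with GM-CSF (-0.62). D2hgdh and Adhfe1, enzymes of hydroxyacid oxidation around 2-oxoglutarate, rose when DON was added (0.71 and 0.70).

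Among 16 tested genes of mitochondrial mass and biogenesis (of 18 listed), 11 rose, 2 fell and 3 were not called with GM-CSF (median 0.29), and 2 rose, 9 fell and 5 were not called when DON was added (median -0.26). The largest values in both comparisons were those of the coactivator Ppargc1b, 1.33 ± 0.13 and -1.40 ± 0.13 by edgeR (adjusted p 1.04e-05 and 1.03e-05), from 4.32 CPM without GM-CSF to 10.9 under GM-CSF alone and 4.11 under GM-CSF plus DON. The import channel Tomm40 had 0.58 and -0.59, its inner-membrane counterpart Timm23 0.45 and -0.59, and the chaperonin Hspd1 0.51 and -0.53, values near those of Fh1. Hspa9, the mitochondrial HSP70, rose by 0.71 with GM-CSF and was not called when DON was added (0.03). Esrra, a nuclear receptor that acts on mitochondrial genes, fell with GM-CSF (-0.40). How far the members' changes go with the amount of mitochondria per cell was not tested.

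**Figure D5:**
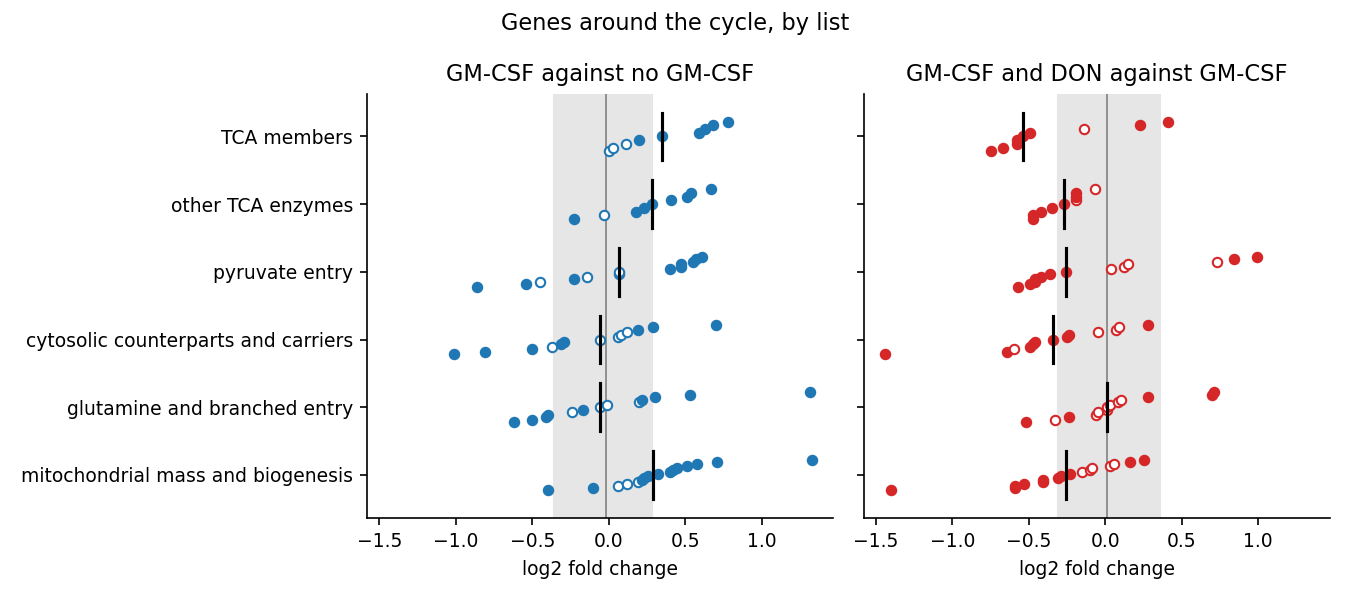
Log2 fold changes of the members and of the gene lists around the cycle, 1 point per gene (filled where called, with small vertical offsets for legibility), for GM-CSF against no GM-CSF and for GM-CSF with DON against GM-CSF, which share the GM-CSF libraries. Black bars are list medians (0.35 and -0.54 for the members), the grey line and band are the median and quartiles over all genes tested, and Irg1 is not plotted.

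The mean centred log2 CPM of the 9 members was -0.14 and -0.13 without GM-CSF, 0.24 and 0.24 under GM-CSF alone, and -0.09 and -0.12 under GM-CSF plus DON. Among 8146 other genes averaging 10 CPM or more, the 5 closest to this profile over the 6 libraries were Rac1, Mad1l1, Minos1, Tufm and Bag1, at root mean square distances of 0.0221 to 0.0257. Minos1 is a component of the mitochondrial contact site complex and Tufm is the mitochondrial elongation factor Tu, while Rac1 is a small GTPase of the cytoskeleton. Rac1, for example, was at 620.1 and 629 CPM, 794 and 774, and 634 and 612 in the 3 groups, with log2 fold changes of 0.33 with GM-CSF and -0.33 when DON was added. The members themselves lay farther from their own mean, from 0.122 for Suclg1 to 0.311 for Idh3b, and 5234 of the other genes were closer to it than Idh3b, 3848 than Idh3g.

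A few members share their locus with another gene, and the strand setting of the counting is not given in the sources used here. Idh3b and Nop56 overlap by 5 exonic bases at their 3′ ends. Nop56 was at 0.10 with GM-CSF, called only with total-count scaling (0.22, adjusted p = 0.0276), and -0.31 when DON was added, the latter not called without GM-CSF replicate 1 (-0.20, adjusted p = 0.0654), so it did not rise with Idh3b. The starts of Idh3g and Ssr4 lie 131 bases apart on opposite strands. Ssr4, a subunit of the translocon-associated complex, rose with GM-CSF (0.33) and was at -0.03 when DON was added, the reverse of the calls for Idh3g. Between GM-CSF with DON and no GM-CSF, both Ssr4 (0.30) and Idh3g (0.23) were called higher. Fh1 overlaps Kmo without shared exonic bases, and Kmo had at most 3 counts per library. The starts of Mdh2 and Styxl1 are 95 bases apart, and Styxl1 had at most 6 counts per library.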

How the data were processed

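RNA sequencing of 6 libraries of alveolar macrophages was analysed, in 3 groups of 2 taken from the labels. The authors deposited a table of whole-number counts per gene and a table of FPKM (counts per length and library size) for the same genes. The submitters' processing notes name featureCounts, DESeq2 1.28.1, Subread 1.4.6, STAR 2.6.0a and the build mm10, with no roles. Annotation, strand setting and filters were not given in the sources used here. Per the labels' protocol, 1.3 ug of total RNA went into each library.

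Counts were filtered with filterByExpr (minimum count 10), TMM-scaled and fitted in 1 edgeR 4.0.16 quasi-likelihood model over all 6 libraries (R 4.3.3, limma 3.58.1, Python 3.11.15), with 3 two-sided contrasts and Benjamini-Hochberg adjustment over all 12340 genes. The fit had 3 residual degrees of freedom. In tests on simulated data, fold changes were recovered, but the share of false calls was above the nominal level. The limit accepted for that share was raised after the first simulated results were seen. The check that changed genes were called covered only genes of at least 10 CPM, also set after simulated results were seen. Calls near the threshold, such as those of Idh3a and Suclg2, call for caution.

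The members and lists were chosen with earlier results of these data known. The rule for named genes took the members, all other enzymes of the cycle, a fixed set (among them Idh1 and Irg1), up to 4 genes per list with the smallest adjusted p or called against most of their list, and the 5 genes nearest to the members' mean profile. Which of these genes are given with values, and which promoters are printed, was decided after their values were seen. Some listed genes count in their lists but are not reported singly here. Ssr4, Nop56, Kmo and Styxl1 are named for their position, outside the rule. Pdk3 and Pdk4 are named beside Pdk1 and Pdk2, also outside the rule. Alternatives were DESeq2 1.42.0, RLE and total-count scaling, no filter, only the compared groups, limma on log2(FPKM + 1) and log2(FPKM + 0.1), a replicate block and leaving out each library.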

Additional observations from a re-analysis of the deposited data

How the results depend on the processing

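None of the counts of calls, over all genes or over the members, moved by more than 1.5 times under any alternative. Leaving out 1 library at a time gave 5686 to 6409 genes called with GM-CSF against none (7014 in the full fit), 5884 to 6214 when DON was added (7111), and 5723 to 6157 for both agents against no GM-CSF (6859). Replicate numbers in the labels are shared by the groups without being said to pair libraries, and differences between replicates correlated at -0.0471, -0.293 and 0.0597 between groups over 8164 genes. With the replicate number as a block, 6, 8 and 6 members were called in the 3 comparisons, and 6708, 6882 and 6542 genes. Of the members' log2 fold changes under alternatives, 303 kept direction and call, 10 lost the call (all Idh3a, both agents against no GM-CSF), 4 gained it and 7 changed sign, none of these called. As single libraries were left out, Idh3g with GM-CSF ranged from -0.03 to 0.04, and against no GM-CSF the cells with both agents had Suclg1 from -0.12 to 0.07 and Fh1 from -0.01 to 0.11. Idh3g also turned to -0.01 with limma at either pseudocount, and Suclg1 to 0.07 by total counts. Among other genes not called with GM-CSF, the ranges were -0.01 to 0.14 for Acly, -0.01 to 0.20 for Nop56 and -0.07 to 0.02 for Sdhb, and total counts turned the sign of Aco1 (0.06) and Sdhb (0.09) and brought calls for Acly (0.18), Nop56 (0.22) and Brp44l (0.19). When DON was added, the ranges were -0.0027 to 0.07 for Glud1 and -0.08 to 0.02 for Ssr4. The log2 difference in the Idh3b to Idh3a ratio when DON was added was 1.20 from FPKM in place of 1.16, and that of Idh3b to Idh3g with GM-CSF ranged from -0.01 to 0.06 as single libraries were left out. The causes were not tested. The number of libraries, 2 per group, limits the precision of every value.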
